A study of Homo sapiens with 6 samples.

Results

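Broad H3K27ac domains are long, unbroken stretches of chromatin that carry acetylation on lysine 27 of histone H3. The domains described here were selected by width alone: peaks of at least 3000 bp on chromosomes 1 to 22 and X in the list of the untreated parental library. There were 2190 of them among 171713 peaks of that list, or 1.28% of its peaks and 6.43% of its covered length. The word domain is used below for every such peak, with no limit on q. For 1141 of them (52.1%) the −log10 q was below 1, so their call as acetylated stretches is uncertain. The cells were CCRF-CEM, a cell line grown from a human T cell leukemia, profiled by chromatin immunoprecipitation and sequencing. Cells with a knockout of SLFN11 received DMSO (knockout control), 100 nM camptothecin for 2 h (knockout 2 h) or 100 nM camptothecin for 4 h (knockout 4 h). Parental, wild-type cells received 100 nM camptothecin for 2 h (parental 2 h) or for 4 h (parental 4 h), or DMSO (parental control). Each of the 6 groups had 1 library, so no value below has a replicate check, no p-value between groups was computed, and a knockout clone, a treatment and a library cannot be told apart. The labels do not say whether the knockout is 1 clone.

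H3K27ac is laid down by the acetyltransferases p300 and CBP at active promoters and enhancers. At most active genes it forms short peaks beside the start site. At some genes it spreads over many nucleosomes, and such wide domains are known from genes that set cell identity, in T cells the genes of lineage transcription factors and of the T cell receptor complex. SLFN11 is a Schlafen family protein that sensitises cells to drugs that stall replication, and camptothecin traps topoisomerase 1 on DNA.

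Gene names were placed on hg19 positions from general knowledge, since no hg19 annotation was used. All 153 placed genes lay on the chromosome that RefSeq GRCh38.p14 gives them, and for 135 the shift between the builds was the same at both gene ends to within 2000 bp. Positions below are hg19. The promoters of 4 genes whose start lay inside a domain are printed to show the sequence under such domains: the transcription factor MYB, the T cell factor BCL11B, the immediate early gene IER2 and the T cell receptor subunit CD3D. Each runs from 250 bases before to 50 bases after the RefSeq start on GRCh38.p14, 5′ to 3′ on the gene's strand, and CG dinucleotides are in capitals. MYB is on chromosome 6 (plus strand), BCL11B on chromosome 14 (minus strand), IER2 on chromosome 19 (plus strand) and CD3D on chromosome 11 (minus strand).
MYB: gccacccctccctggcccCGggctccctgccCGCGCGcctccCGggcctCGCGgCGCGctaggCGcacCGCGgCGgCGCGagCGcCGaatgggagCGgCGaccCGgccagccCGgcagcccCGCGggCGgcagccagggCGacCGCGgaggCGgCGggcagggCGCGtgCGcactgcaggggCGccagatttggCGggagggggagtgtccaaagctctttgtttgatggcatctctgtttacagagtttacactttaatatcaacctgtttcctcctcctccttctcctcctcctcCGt
BCL11B: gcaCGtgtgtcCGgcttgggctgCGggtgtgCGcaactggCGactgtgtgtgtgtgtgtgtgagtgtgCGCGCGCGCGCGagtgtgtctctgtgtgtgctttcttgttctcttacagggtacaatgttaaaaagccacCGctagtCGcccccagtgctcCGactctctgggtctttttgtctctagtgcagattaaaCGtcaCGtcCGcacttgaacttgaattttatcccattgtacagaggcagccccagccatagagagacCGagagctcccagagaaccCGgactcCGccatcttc
IER2: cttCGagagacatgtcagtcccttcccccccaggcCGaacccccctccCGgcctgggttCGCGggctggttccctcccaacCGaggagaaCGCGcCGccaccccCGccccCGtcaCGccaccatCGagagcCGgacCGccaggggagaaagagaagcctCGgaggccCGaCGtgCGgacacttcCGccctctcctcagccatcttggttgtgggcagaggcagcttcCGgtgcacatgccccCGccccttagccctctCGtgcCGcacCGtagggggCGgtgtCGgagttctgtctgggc
CD3D: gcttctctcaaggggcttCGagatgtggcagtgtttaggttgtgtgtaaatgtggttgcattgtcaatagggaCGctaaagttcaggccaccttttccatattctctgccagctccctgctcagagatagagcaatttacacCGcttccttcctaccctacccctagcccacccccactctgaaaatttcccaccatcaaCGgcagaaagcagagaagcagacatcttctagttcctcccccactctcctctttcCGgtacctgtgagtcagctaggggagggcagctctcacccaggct
The MYB promoter held 35 CG dinucleotides, IER2 27, BCL11B 20 and CD3D 5. The median over the 35116 promoters of the same length in the RefSeq table was 14, and 96.0% held at least 1. CG reads the same on both strands, so 1 count serves for both. The wide domain at CD3D thus lay over a promoter with fewer CG than most, and that at MYB over one with more than 85.9% of promoters.

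Most domains were only a little wider than the limit. Their widths in parental control ran from 3001 to 8063 bp with a median of 3445 bp, and 79.9% were under 4000 bp. The fold of a peak, the authors' ratio of its mean pileup to the local background, had a median of 2.32 in the domains, against 2.38 in the 40495 narrower peaks of the same list (at least 1000 bp but under 3000 bp). The domains' highest fold was 5.18, while that of the whole list was 15.0. Domains were 2 of the 1000 peaks with the smallest p, 420 of the 10000 with the smallest p, and 0 of the 1000 with the highest fold. Their median −log10 q was 0.892, against 0.547 in narrower peaks. Just inside the width limit lay peaks of 3001 bp on chromosomes 1, 18 and 20, and just outside it peaks 1 bp short of it on chromosomes 19 and 22 and 2 bp short on chromosome 11. Width, fold and q in this list come from the library that selected the domains and are given as a description.

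The authors' −log10 q split the domains unevenly. At a −log10 q of at least 5, here called strong, there were 656 domains (30.0%). Another 393 (17.9%) lay between 1 and 5, here called middle, and 1141 (52.1%) lay below 1, here called weak. Of the narrower peaks 24.4% were strong and 58.9% weak, so domains were more often strong and less often weak than narrower peaks of this list. Strong domains had a median fold of 2.75 and weak ones 2.12. Strong narrower peaks had a median fold of 4.96 and weak ones 2.08. Median −log10 q was 10.5 in strong domains and 14.9 in strong narrower peaks. The strong class thus does not match domains to narrower peaks in fold or q. Strong were 161 of the 440 domains of at least 4000 bp and 33 of the 71 of at least 5000 bp. Over the 2190 domains of this library, Spearman's rho was 0.03 between width and −log10 q and -0.21 between width and fold.

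**Figure D1:**
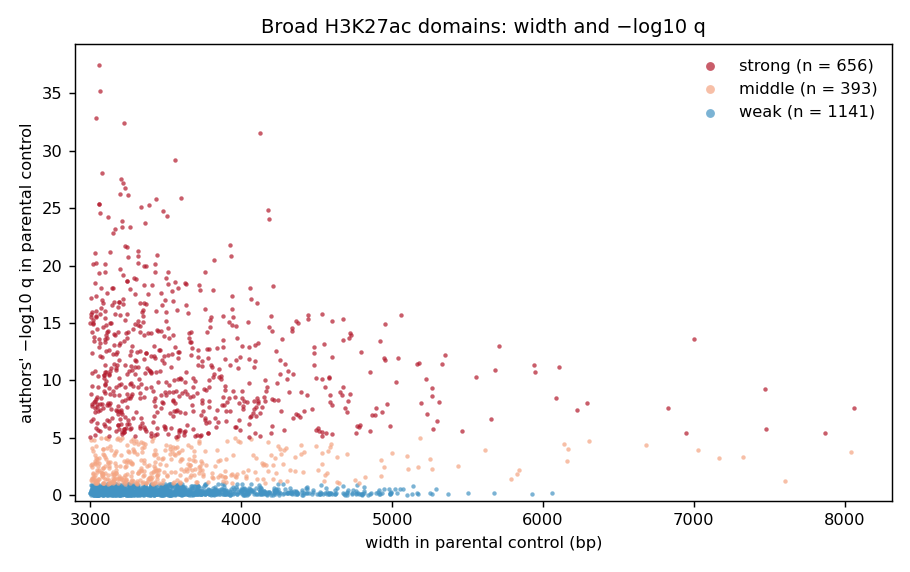
Each point is 1 broad domain of parental control, with its width in bp on the x axis and the authors' −log10 q on the y axis. Strong domains number 656, middle 393 and weak 1141, and the widest domains occur among strong as well as middle ones.

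Domains made up the largest share of peaks on the gene-rich chromosomes 22 (2.12% of its peaks), 17 (2.09%) and 16 (2.02%). The smallest shares were on chromosome 13 (0.667%) and chromosome 4 (0.692%). Domains also lay near each other: 11.7% had another domain within 10 kb, against 5.59% of narrower peaks. A strong peak stood within 5 kb of 21.5% of strong domains and of 10.6% of strong narrower peaks, but of 1.4% of weak domains and 2.76% of weak narrower peaks. The megabase from 41 to 42 Mb of chromosome 6, which holds CCND3, had 9 domains, 4 of them strong, while the megabase from 2 to 3 Mb of chromosome 17 had 10 domains, 0 of them strong.

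Among the 10 widest domains, those at named genes lay at FNBP1, FMNL1, CD99, BAHCC1 and CCND3. The widest of all, 8063 bp on chromosome 9 from 132646354 to 132654416, crossed the 3′ end of FNBP1, a gene for a membrane-bending protein. It was covered over 94.6% in knockout control, 94.1% in knockout 2 h and 55.5% in knockout 4 h, and over 80.6% in parental 2 h and 72.5% in parental 4 h. A domain of 7866 bp over the start of FMNL1, a formin of blood cells, was covered over 85.7% in knockout control, 98.4% in knockout 2 h, 56.4% in knockout 4 h, 99.1% in parental 2 h and 100.0% in parental 4 h. These wide domains were most reduced in the knockout 4 h list, which had the lowest background of the 6.

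The domain of 6998 bp within CCND3, the gene of the G1 cyclin D3, was covered over 99.7% in knockout control, 99.9% in knockout 2 h and 53.6% in knockout 4 h. In parental cells 63.7% was covered at 2 h and 81.0% at 4 h. CD99, a surface protein of T cells encoded in the pseudoautosomal region, had a domain of 7472 bp over its start, covered over 87.4%, 65.0% and 44.9% in knockout control, 2 h and 4 h and over 76.3% and 68.3% in parental 2 h and 4 h. BAHCC1, a chromatin reader gene, had 7328 bp over its start, and every library but knockout 4 h (72.2%) covered at least 99.5% of it.

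The other members of the 10 widest lay away from protein genes placed here. Of these, 3 lay close together on chromosome 1 between 228744123 and 228783190, where the tandem array of 5S ribosomal RNA genes is known to lie. They were 8043, 7602 and 7030 bp wide, with a fold of 1.55, 1.34 and 1.57 in parental control, and none was strong. Reads from tandem copies share sequence, so these domains are uncertain in extent. The last of the 10 were a strong domain on chromosome 2 from 43357380 to 43364858 and a middle one on chromosome 12 from 125087679 to 125094842.

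The 5 domains with the highest fold were all strong and lay near the width limit. DLEU2, a long noncoding RNA gene of chromosome 13, held one of 3057 bp with a fold of 4.53. By the smallest p it ranked first of the 2190 domains in knockout control, knockout 2 h, parental 2 h, parental 4 h and parental control, and in place 2 in knockout 4 h. Its cover was 99.8% in knockout control, 56.8% in knockout 2 h and 54.4% in knockout 4 h, and 50.6% in parental 2 h and 44.3% in parental 4 h. Its largest fold was 4.56 in knockout control, 5.41 in knockout 2 h and 5.89 in knockout 4 h, and 5.77 in parental 2 h and 5.8 in parental 4 h. This domain thus had less cover and a larger fold in the 4 treated libraries than in knockout control. In knockout 2 h and in parental 2 h it was overlapped by 2 peaks. Fold is a mean over the called peak, so it is not independent of the called width. The other members of the 5 lay on chromosomes 2, 5, 7 and 17, with a fold of 5.18, 4.83, 5.02 and 4.99 in parental control.

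Counted within 5 kb of the gene, domains were more frequent at genes of the T lymphoid list than at those of the other lists. Counted at gene starts, the T lymphoid, immediate early and other active lists were closer to each other. Of the 43 T lymphoid genes, 24 had a domain within 5 kb of the gene, 17 had a strong one and 10 had their start inside one. The T lymphoid list also holds MYC, which is not particular to T cells, and the leukemia genes TAL1, LMO2, LYL1, STIL, NKX2-5 and TLX3. Of these, MYC, LYL1 and NKX2-5 had a domain. Of 20 immediate early genes, 4 had a domain within 5 kb and 4 had their start inside one, and 14 had a strong peak within 5 kb. Of 24 other active genes, 5 had a domain within 5 kb and 4 had their start inside one, although 23 of them had a strong peak within 5 kb. The list of other active genes holds genes active in most cells and also CCND2, CCND3, CDK6, BCL2 and CXCR4, which are not equally active in all cell types. CCND3, CDK6 and CXCR4 are among its 5 genes with a domain, and the others are GAPDH and PTMA. Among marker genes of other cells, 0 of 7 B lymphoid, 0 of 7 myeloid, 0 of 4 erythroid and 0 of 5 genes not of blood had a domain. A strong peak lay within 5 kb of 2, 2, 2 and 0 of these genes, against 37 of the 43 T lymphoid genes. The share over all genes was not computed. These lists are short, gene spans differ between them, and the counts come from the library that selected the domains, so they are a description.

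The peak over the gene start had a median width of 2510 bp over the 31 T lymphoid genes with such a peak, 2435 bp over 13 immediate early genes and 1892 bp over 23 other active genes. Widths over the starts of other active genes ran from 1153 to 4446 bp. EEF1A1, a translation elongation factor, had 1699 bp, TUBA1B, an alpha tubulin, 1587 bp and HSPA8, a chaperone, 1861 bp. Above that list's median, ACTB had 2438 bp and HNRNPA2B1 2809 bp. The order of fold, a mean over the peak and so not independent of its width, was the opposite. Over the starts of the other active genes the median fold was 4.36, and over those of T lymphoid genes it was 2.83. Within the T lymphoid list, starts inside a domain had a median fold of 2.32 and starts in narrower peaks 3.56. Not every T cell gene had a peak at its start: IL7R and RAG2 were among those with no peak over it.

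**Figure D2:**
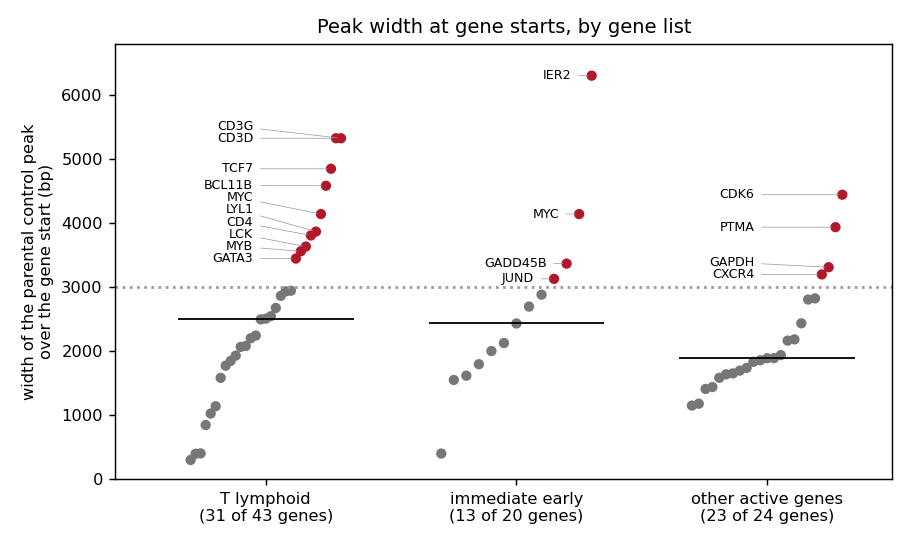
Each point is the parental control peak over the start of 1 gene, with its width in bp on the y axis. Red points are domains of at least 3000 bp (dotted line), bars are medians (2510, 2435 and 1892 bp), and the numbers below give the genes with a peak over the start out of the list. MYC stands in 2 lists.

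Among the transcription factors of the T lymphoid list, domains stood over the starts of TCF7, GATA3, BCL11B, MYB, LYL1 and MYC. Others, SATB1, RUNX3 and TOX included, had no domain within 5 kb. The MYB domain, 3563 bp on chromosome 6 from 135501636 to 135505198, lay over the CG-rich promoter printed above. It was covered over 96.7% in knockout control, 94.5% in knockout 2 h and 92.7% in knockout 4 h, and over 93.9% in parental 2 h and 93.7% in parental 4 h. Its place among the 2190 domains by p was 7, 5 and 5 in knockout control, 2 h and 4 h, 8 and 10 in parental 2 h and 4 h, and 6 in parental control. MYB was thus near the top of the domains in all 6 libraries.

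TCF7, a factor of T cell commitment, had domains of 4851 and 4925 bp that together spanned chromosome 5 from 133448778 to 133460175 with a short gap. The first, over the start, was covered over at least 97.4% in each of the other 5 libraries. The second was covered over 99.6%, 100.0% and 65.9% in knockout control, 2 h and 4 h, and over 100.0% and 99.7% in parental 2 h and 4 h. BCL11B had 4586 bp over its start, covered over 88.2%, 100.0% and 81.9% in knockout control, 2 h and 4 h and over 92.1% and 99.6% in parental 2 h and 4 h. Its relative BCL11A, a zinc finger factor placed after the domains were seen, had 6291 bp on chromosome 2 from 60776520 to 60782810. That domain was covered over at least 99.7% in all 5 other libraries.

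The GATA3 domain moved more. GATA3, a factor of T cell development, had 3449 bp on chromosome 10 from 8095604 to 8099052. It was covered over 66.2% in knockout control, 100.0% in knockout 2 h and 80.7% in knockout 4 h, and over 81.5% in parental 2 h and 100.0% in parental 4 h. LYL1, a helix-loop-helix factor of T cell leukemia, was covered over 81.1%, 84.9% and 70.7% in knockout control, 2 h and 4 h and over 81.6% and 85.5% in parental 2 h and 4 h. MYC, a growth-promoting factor, had 4144 bp over its start, middle by q, with at least 96.4% covered in every other library.

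NKX2-5, a homeobox gene best known from the heart and active in some T cell leukemias, had a domain of 5269 bp over its body, short of its start, on chromosome 5 from 172656782 to 172662050. All 5269 bp were covered in each of the 5 other libraries, knockout 4 h included. Its largest fold was 1.88, 1.87 and 2.23 in knockout control, 2 h and 4 h, 1.98 and 1.99 in parental 2 h and 4 h, and 1.92 in parental control. Domains also lay inside IKZF1 (3488 bp), ETS1 (3584 bp), RUNX1 (3425 and 3426 bp) and LEF1 (3545 bp), all lymphoid transcription factor genes. ETS1 kept at least 95.3% cover in the 5 other libraries. The second RUNX1 domain, from 36292986 on chromosome 21, kept 69.5%, 71.8% and 45.5% in knockout control, 2 h and 4 h, and 53.1% and 47.4% in parental 2 h and 4 h.

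In the T cell receptor pathway, 1 domain of 5328 bp spanned the facing starts of CD3D and CD3G on chromosome 11 from 118209915 to 118215242. It was covered whole in knockout control, knockout 2 h, parental 2 h and parental 4 h, and over 73.7% in knockout 4 h. LCK, the kinase that starts receptor signalling, had 3637 bp over its start, covered over at least 98.0% in each of the 5. CD4, a coreceptor, had 3810 bp over its start, covered over 100.0%, 100.0% and 71.3% in knockout control, 2 h and 4 h, and over 55.3% in parental 2 h and 100.0% in parental 4 h. CD2, an adhesion receptor, had a middle domain of 3587 bp just past its start, covered over 97.9%, 71.9% and 40.8% in knockout control, 2 h and 4 h, and over 69.5% in parental 2 h and 97.0% in parental 4 h. A second LCK domain, 3100 bp within the gene and middle by q, was covered over 94.5%, 99.5% and 53.6% in knockout control, 2 h and 4 h, and over 51.1% in parental 2 h and 98.3% in parental 4 h. At CD4, CD2 and this second LCK domain, cover was thus lower in parental 2 h than in parental 4 h.

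Genes of immature T cells and of NOTCH signalling held further domains. NOTCH1, a receptor often mutated in T cell leukemia, had strong domains of 5463 and 3587 bp, and the wider was covered over at least 91.3% in the 5 other libraries. DTX1, a NOTCH target, had 5788 bp covered over 97.1%, 88.4% and 48.1% in knockout control, 2 h and 4 h and over 66.4% and 98.2% in parental 2 h and 4 h. DNTT, the terminal transferase of receptor rearrangement, had 3677 bp covered whole in knockout control, over 63.6% and 58.9% in knockout 2 h and 4 h, and over 60.9% and 61.0% in parental 2 h and 4 h. RHOH, a GTPase of blood cells, held 3 domains. The one nearest its 5′ end was covered over 99.3%, 99.8% and 52.9% in knockout control, 2 h and 4 h, and over 99.4% and 99.5% in parental 2 h and 4 h.

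**Figure D3:**
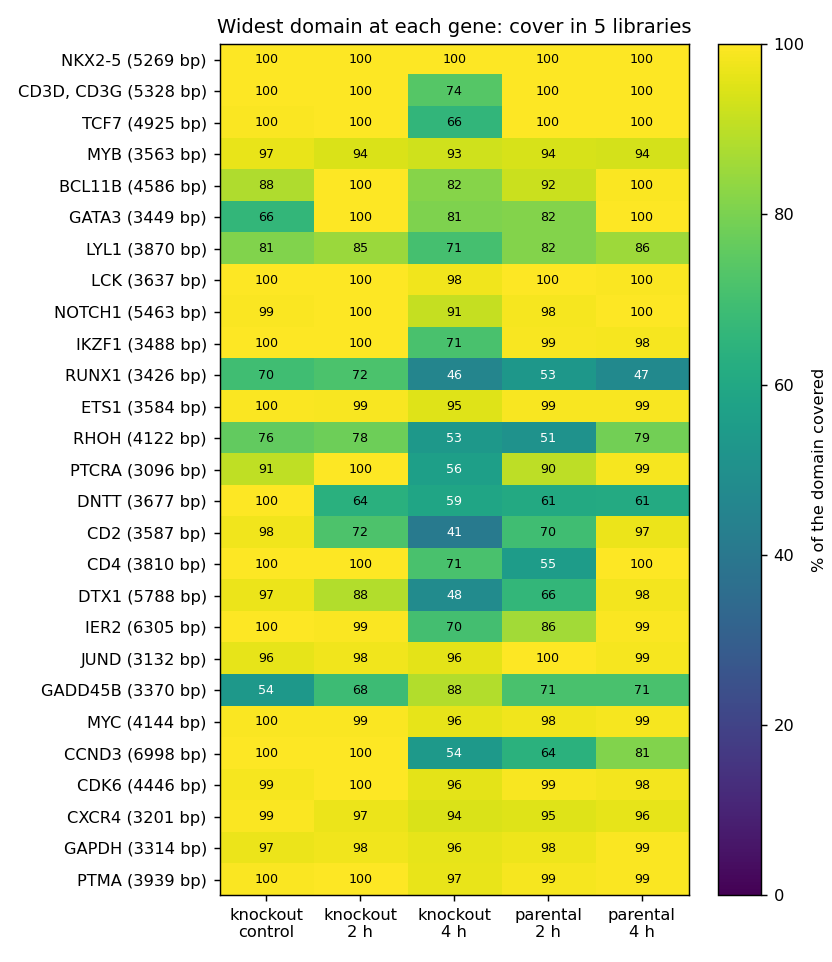
Each row is the widest domain at 1 gene of the lists, with its parental control width, and each column 1 of the other 5 libraries. Colours and numbers give the percentage of the domain covered by peaks. NKX2-5 reads 100 throughout, and the knockout 4 h column holds the lowest value of its row for CD3D and CD3G, TCF7, CD2, DTX1 and CCND3.

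Of the 20 immediate early genes, 4 had their start inside a domain: IER2, JUND, GADD45B and MYC. IER2 had 6305 bp on chromosome 19 from 13260786 to 13267090, covered over 99.7%, 99.4% and 70.1% in knockout control, 2 h and 4 h, and over 86.3% in parental 2 h and 99.3% in parental 4 h. JUND, an AP-1 subunit, was covered over at least 95.9% in each of the 5. GADD45B, a stress response gene, was covered over 53.5%, 68.5% and 88.4% in knockout control, 2 h and 4 h, and over 71.3% in both parental 2 h and parental 4 h. GADD45B was the exception among these, with its highest cover in the knockout 4 h list. The starts of FOSB, EGR1 and ATF3 lay in no peak of parental control, and these genes had no domain within 5 kb.

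Among the other active genes, domains stood over the starts of GAPDH, PTMA, CDK6 and the chemokine receptor CXCR4. CXCR4 had 3201 bp, at place 11, 12 and 20 among the domains by p in knockout control, 2 h and 4 h, 14 and 22 in parental 2 h and 4 h, and 8 in parental control. CDK6, a G1 kinase, had 4446 bp covered over at least 95.9% in each of the 5. GAPDH, a glycolytic enzyme, and PTMA, a chromatin protein, had at least 96.1% covered in each. Cover of the 4 promoter domains was at least 94.4% in every other library, against at least 92.7% for MYB and 98.0% for LCK.

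Whether a domain was found again in another library went with its strength more than with its width. A domain is called held when peaks of the other library cover at least 50% of it. Knockout control held 1558 domains (71.1%, Wilson 95% interval 69.2 to 73.0), against 65.6% of narrower peaks. Knockout 2 h held 1527 (69.7%), against 63.5%, and knockout 4 h 1208 (55.2%), against 51.3%. Parental 2 h held 1421 (64.9%, 62.9 to 66.9), against 56.6% of narrower peaks, and parental 4 h 1449 (66.2%), against 58.6%. The intervals cover counting error over domains only.

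Split by strength, domains and narrower peaks came closer. Of the strong domains 99.5% were held in knockout control, against 98.8% of strong narrower peaks. In knockout 2 h the shares were 98.9% of strong domains and 98.6% of strong narrower peaks, and in knockout 4 h 90.7% and 94.5%. In parental 2 h they were 97.3% and 97.7%, and in parental 4 h 98.8% and 98.5%. Nearly every strong domain was thus found again outside knockout 4 h.

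Weak domains were found again about as often as weak narrower peaks or a little more often. Knockout control held 47.8% of weak domains and 45.8% of weak narrower peaks, knockout 2 h 47.0% and 42.5%, and knockout 4 h 30.3% and 29.1%. Parental 2 h held 40.3% of weak domains and 33.3% of weak narrower peaks, and parental 4 h 40.4% and 35.4%. In all 4 libraries other than knockout 4 h, 96.0% of strong and 14.7% of weak domains were held.

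**Figure D4:**
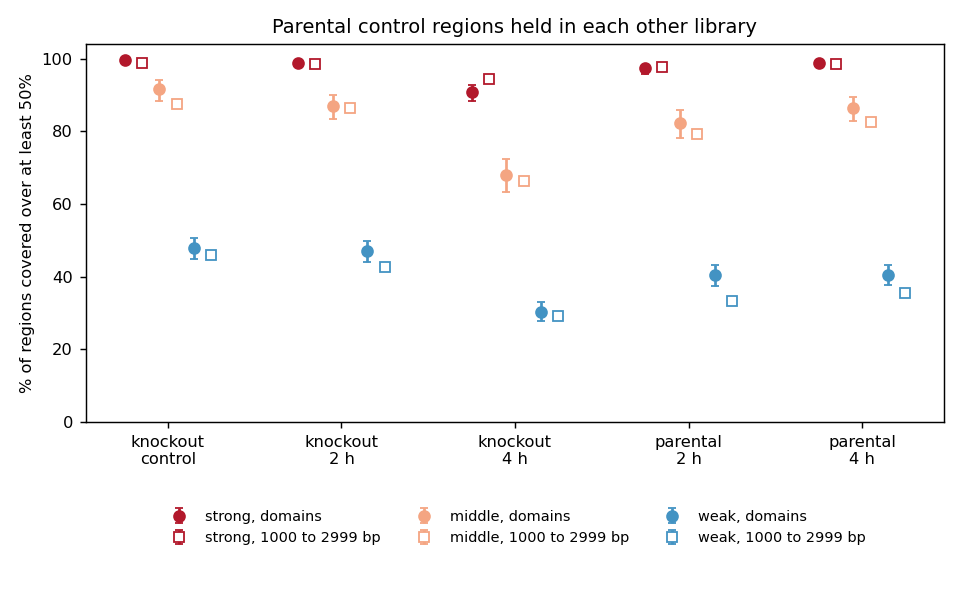
Filled circles are broad domains and open squares narrower parental control peaks (1000 bp to under 3000 bp), by strength class. The y axis gives the percentage covered over at least 50% in each library, with Wilson 95% intervals. Strong regions lie between 90.7% and 99.5%, weak ones between 29.1% and 47.8%.

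Most held domains were held by 1 unbroken peak. A single peak covered at least 50% of the region for 63.8% of domains and 64.8% of narrower peaks in knockout control. The shares were 61.5% of domains and 62.7% of narrower peaks in knockout 2 h, and 45.3% and 50.4% in knockout 4 h. They were 55.8% of both in parental 2 h, and 58.2% of domains and 57.8% of narrower peaks in parental 4 h. Outside knockout 4 h, unbroken cover was thus about as frequent in domains as in narrower peaks with the strength classes pooled. Within each strength class it was less frequent in domains in every library. Among strong regions the shares were 96.2% of domains and 98.6% of narrower peaks in knockout control, and 91.2% and 97.2% in parental 2 h. Among weak regions they were 38.0% and 44.7% in knockout control, and 30.9% and 32.5% in parental 2 h. Of all 2190 domains, held or not, at least 2 peaks overlapped 26.7%, 27.7% and 40.9% in knockout control, 2 h and 4 h. The shares of narrower peaks were 4.44%, 4.3% and 6.62%. In parental 2 h and 4 h they were 31.8% and 27.9% of domains, against 4.25% and 3.95% of narrower peaks. Domains are wider by selection, and the part of width in these shares was not tested. A peak that itself reached 3000 bp overlapped 462 domains (21.1%), by at least 1 bp, in all 4 libraries other than knockout 4 h. That share was 56.1% of strong domains and 1.49% of weak ones. No such peak overlapped 62.8% of weak and 7.93% of strong domains in any of the 4 libraries. The same shares of narrower peaks over the 4 libraries were not computed.

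Most wide peaks of the other lists overlapped no domain, but most of those with a −log10 q of at least 5 overlapped one. Knockout control held 3472 peaks of at least 3000 bp, knockout 2 h 2973, knockout 4 h 1984, parental 2 h 2082, parental 4 h 2170 and parental control 2190. Of these, 26.2%, 30.0% and 23.7% overlapped a domain in knockout control, 2 h and 4 h, and 35.1% and 37.1% in parental 2 h and 4 h. Among wide peaks with a −log10 q of at least 5 the shares were 76.3%, 73.9% and 92.5% in knockout control, 2 h and 4 h, and 91.5% and 86.2% in parental 2 h and 4 h. In the other direction, 41.6%, 40.7% and 21.5% of domains were overlapped by a wide peak of knockout control, 2 h and 4 h. The shares were 33.4% and 36.7% for parental 2 h and 4 h. Of narrower peaks, 3.82%, 3.62% and 2.43% were overlapped by a wide peak of knockout control, 2 h and 4 h. For parental 2 h and 4 h these were 2.34% and 2.49%. Domains are wider by selection, and the part of width in this contrast was not tested. The background pileup of the lists, a measure of relative depth in fragments per base, was 0.699, 0.715 and 0.168 in knockout control, 2 h and 4 h, 0.506 and 0.57 in parental 2 h and 4 h, and 0.603 in parental control. Its part in these numbers was not tested.

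Change was counted between libraries that did not select the domains, as a difference of at least 25 percentage points in covered share. From 2 h to 4 h of camptothecin in parental cells, cover was higher at 4 h for 311 domains (14.2%, against 16.6% of narrower peaks) and lower for 237 (10.8%, against 13.8%). The share of domains that moved was thus below that of narrower peaks in both directions. Among strong domains 43 were higher (6.55%, against 4.31% of strong narrower peaks) and 11 lower (1.68%, against 1.99%). The background pileup was 0.57 at 4 h and 0.506 at 2 h, and its part was not tested.

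The strong domains with the largest gain at 4 h over 2 h in parental cells included those at CAMK1D, BIN2, SRRT and ZC3HAV1, genes placed after the domains were seen. The BIN2 domain, at the start of a membrane adaptor gene of blood cells, was covered over 98.7% in parental 4 h and 49.6% in parental 2 h, and over 100.0%, 100.0% and 34.0% in knockout control, 2 h and 4 h. Its largest fold was 3.97 in parental 4 h and 4.82 in parental 2 h, where 2 peaks overlapped it. Fold is a mean over the called peak, so these values are not independent of the called width. The domain within CAMK1D, a calcium-dependent kinase gene, was covered over 99.3% in parental 4 h and 44.1% in parental 2 h, and over 99.9%, 77.6% and 100.0% in knockout control, 2 h and 4 h. The domain in ZC3HAV1, an antiviral protein gene, was covered over 98.3% in parental 4 h and 60.3% in parental 2 h, and over 44.3%, 84.4% and 45.8% in knockout control, 2 h and 4 h.

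The strong domains with the largest loss at 4 h against 2 h included one within PTPN6, a phosphatase gene of blood cells, covered over 68.7% in parental 4 h and 100.0% in parental 2 h. It was covered over 65.2%, 64.8% and 63.6% in knockout control, 2 h and 4 h. The other members of that 5 lay at no gene placed here. Over all domains the 5 largest gains at 4 h included 4 weak ones and 1 middle one, on chromosome 2 from 136882697 to 136885863, upstream of CXCR4. That domain was covered over 97.3% in parental 4 h and 12.4% in parental 2 h. The 5 largest losses were all weak.

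In knockout cells, cover at 2 h was higher than in control for 224 domains (10.2%, against 13.9% of narrower peaks) and lower for 308 (14.1%, against 17.0%). Among strong domains 15 were higher (2.29%, against 2.44%) and 34 lower (5.18%, against 2.47%). The background pileup was 0.715 in knockout 2 h and 0.699 in knockout control, and its part was not tested. GATA3, GLRX, PITPNM2 and ZC3HAV1 were at domains with the largest gains among strong ones. GLRX, a glutaredoxin gene, had 3402 bp over its start, covered over 100.0% in knockout 2 h and 66.3% in knockout control. The largest losses among strong domains included DLEU2, SKA2 and SEC31B. SKA2, a gene of the spindle and kinetochore complex, was covered over 50.5% in knockout 2 h and 98.3% in knockout control, and its largest fold was 5.1 in knockout 2 h and 4.1 in knockout control.

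At 4 h in knockout cells, 137 domains were higher than in control (6.26%, against 9.29% of narrower peaks) and 719 lower (32.8%, against 29.5%). Among strong domains 4 were higher (0.61%, against 1.28%) and 187 lower (28.5%, against 14.1% of strong narrower peaks). Median fold in parental control was 2.75 in strong domains and 4.96 in strong narrower peaks, and its part was not tested. The background pileup was 0.168 in knockout 4 h and 0.699 in knockout control, so treatment and depth cannot be told apart here. Of weak domains 31.4% were lower and 10.3% higher. Median cover in knockout control was 98.6% in strong domains and 48.7% in weak ones. Weak domains thus had less cover to lose, and the rates of loss in strong and weak domains do not compare directly.

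Between genotypes at 2 h, cover in knockout cells was higher than in parental cells for 391 domains (17.9%, against 21.3% of narrower peaks) and lower for 211 (9.63%, against 11.4%). Among strong domains 49 were higher (7.47%, against 5.47%) and 18 lower (2.74%, against 1.53%). At 4 h, 194 domains were higher in knockout cells (8.86%, against 13.1% of narrower peaks) and 605 lower (27.6%, against 23.4%). Among strong domains 6 were higher (0.915%, against 1.77%) and 152 lower (23.2%, against 13.1%). Strong narrower peaks had a higher fold in parental control than strong domains, and the part of fold was not tested. The background pileup was 0.715 in knockout 2 h and 0.506 in parental 2 h, and 0.168 in knockout 4 h and 0.57 in parental 4 h. Between genotypes, the more frequent direction of change at each time was that of the background. For knockout 2 h against knockout control it was not. The part of the background was not tested.

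**Figure D5:**
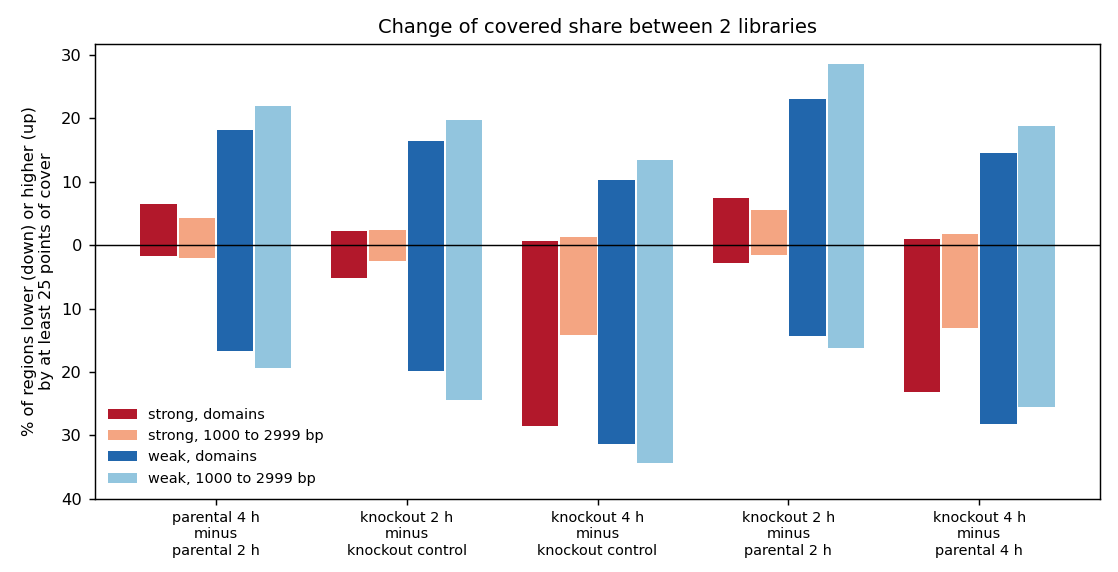
Bars show the percentage of strong and weak domains, and of narrower peaks of the same class, whose covered share was higher (up) or lower (down) by at least 25 points in the first library named. For knockout 4 h against knockout control, 28.5% of strong domains were lower and 0.61% higher.

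The largest fold in a domain was set against the members' median difference between 2 libraries on the log2 scale. Between parental 4 h and parental 2 h, 75 of 2106 domains with a peak in both lay at least 0.5 off the median (3.56%, against 5.15% of narrower peaks). Between knockout 2 h and knockout control 62 of 2140 did (2.9%, against 4.75%). Ranked by p among the 2190 members, the median domain moved 125 places between parental 4 h and parental 2 h and 106 between knockout 2 h and knockout control. Between knockout 4 h and knockout control it moved 212 places, and between genotypes 148 places at 2 h and 200 at 4 h.

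Few domains had no cover in a pair of libraries. In parental 2 h and parental 4 h together, 6 domains had no cover at all, and in knockout control and knockout 2 h together 5 had none, with 0 strong ones in either case. All 2190 had some cover in at least 1 of the 4 libraries other than knockout 4 h. Of the 6 domains with no cover in parental 2 h and parental 4 h, a weak one lay on chromosome 6 from 4906586 to 4909836, with 200 bp covered in knockout control and 0 in each of the other 4. Among strong domains, the one with the smallest sum of covered percentages in knockout control and knockout 2 h lay on chromosome 20 from 5057799 to 5061386. It was covered over 62.2%, 21.6% and 31.9% in knockout control, 2 h and 4 h and over 43.3% and 25.1% in parental 2 h and 4 h.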

How the data were processed

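The 6 deposited broad peak lists, 1 per library and on hg19, were analysed. Per the submitters' processing notes, peaks came from MACS2 2.1.2 and alignments from BWA 0.7.17, with trimming by Trimmomatic 0.39 and Trim Galore 0.6.2 and handling by Picard 2.9.2 and SAMtools 1.8. No settings are stated. The fold is the ratio the authors deposited, the −log10 p and −log10 q are those the authors deposited, and the deposited score was not used in any result. In a broad peak file MACS2 averages these values over the peak. The domains were peaks of parental control of at least 3000 bp. For each, the covered bp, largest fold and best rank by −log10 p of peaks overlapping by at least 1 bp were taken from every other list with Python 3.11.15, pandas 2.3.3 and scipy 1.17.1. Background regions were the parental control peaks of at least 1000 bp and under 3000 bp. Read depth is unknown; a background pileup was solved for each list from its commonest combination of fold and p.

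The members, lists and thresholds were chosen with earlier results of these data known, and the split into strong, middle and weak was chosen after seeing the data. Named are the 10 widest, the 5 of highest fold, the 5 largest gains and losses in 2 comparisons, the 5 least covered in 2 pairs of libraries, and domains at the listed genes; the same top 5 among strong domains, and further genes, were added after seeing the data. Gene positions on hg19 came from general knowledge, with symbols, chromosomes and gene lengths checked against RefSeq GRCh38.p14: 132 of 153 spans were within 10%. A gene name is therefore less certain than a coordinate. Coordinates are 1-based. The cover step was tested on simulated data and recovered 200 of 200 shortened regions. Alternatives are given in the closing section.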

Additional observations from a re-analysis of the deposited data

Results flagged for a closer look

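The median covered share of the domains moved in opposite directions with time in the genotypes. It was 54.5% in knockout 4 h and 71.1% in knockout 2 h, and 68.3% in parental 4 h and 66.2% in parental 2 h. The median difference per domain between parental 4 h and parental 2 h was only 0.18 points. Narrower peaks moved in the same directions, so the pattern was not particular to the domains. Their medians were 52.2% in knockout 4 h, 74.9% in knockout 2 h, 65.8% in parental 4 h and 61.9% in parental 2 h. These differences were not tested, since each group has 1 library, and the background pileup of knockout 4 h was 0.168.

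Peaks of at least 3000 bp also lay on sequences other than chromosomes 1 to 22 and X, which the comparisons do not use. Parental control had 74 of them. The other lists had 91, 74 and 90 in knockout control, 2 h and 4 h and 64 and 57 in parental 2 h and 4 h.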

How the results depend on the processing

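No paired analysis was possible because each group has 1 library and no result comes from a test, and no replicate could be left out. Of 78 alternative values, 19 stayed within 1.5 times the reported count and 59 did not. The number of domains was 4706 at 2500 bp and 440 at 4000 bp. Counts held in knockout control, 2 h and 4 h and in parental 2 h and 4 h were 964, 966, 558, 828 and 903 with the 30000 smallest p of each list, 647, 666, 137, 537 and 553 with peaks of −log10 q of at least 5, and 957, 899, 486, 767 and 822 at 80% cover. By 1 unbroken peak at 80%, the counts outside that limit were 883 in knockout 2 h, 482 in knockout 4 h, 755 in parental 2 h and 811 in parental 4 h. Strong members only, an alternative added after seeing the data, gave 1986 in knockout 4 h when scaled to all members.

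Counts of changed domains follow as higher, then lower. At 10 points they were 594 and 532 (parental 4 h against 2 h), 506 and 588 (knockout 2 h against control), 286 and 1175 (knockout 4 h against control), 738 and 473 (knockout against parental at 2 h) and 411 and 1030 (at 4 h). At 50 points they were, for the same comparisons in that order, 51 and 37, 34 and 47, 21 and 188, 84 and 41, and 46 and 151. With the 30000 smallest p they were 194 and 69, 131 and 134, 17 higher, 72 lower, and 26 higher, the missing directions being within the limit. With −log10 q of at least 5 they were 85 and 46, 69 and 68, 0 higher, 189 and 32, and 0 higher. For knockout 2 h against control the balance, lower in excess among all peaks, was thus 131 higher and 134 lower, or 69 higher and 68 lower. Ranked by fold, the median shift was 208 places between parental 4 h and 2 h and 188 between knockout 2 h and control. The cause of these shifts was not tested. The background pileup, a measure of relative depth, was 0.168 in knockout 4 h and at least 0.506 in every other list.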

Other observations

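Long genes could hold several domains. RPTOR, a subunit gene of the mTOR complex on chromosome 17, held 7 domains, 5 of them strong, the widest 6832 bp. That one was covered over 88.2%, 100.0% and 74.2% in knockout control, 2 h and 4 h and over 75.2% and 88.0% in parental 2 h and 4 h. HDAC4, a deacetylase gene, held 4 domains, of which the widest, 5225 bp, was covered over at least 78.0% in each of the 5 other libraries. These genes were placed after the domains were seen, and longer genes have more room for a domain.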
